A study of Homo sapiens with 2 samples.

Results

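The 56 collagen chain and laminin chain genes were followed in MDA-MB-231, an established human breast cancer line, after delivery of a hairpin against MPP7. They were all genes of the expression table whose names have the form of a collagen chain (COL, a number, A, a number) or a laminin chain (LAMA, LAMB or LAMC and a digit). These were 56 of 58233 listed genes, 44 collagens and 12 laminins. The shMPP7 group was MDA-MB-231 transduced with lentivirus carrying a short hairpin RNA against MPP7, a membrane-associated scaffold of cell junctions. The shCon group was the same line transduced with lentivirus carrying a non-target hairpin. Per the labels, the multiplicity of infection was 10, medium was changed at 12 h, microscopy followed at 72 h, and puromycin selection lasted 7 days in either group, so lentiviral infection and puromycin were common to both. Stable lines were made this way; the design text speaks of an MPP7 hairpin sequence in the singular, and whether the lines were clones is not stated. Total RNA was sequenced from 1 library per group, so every difference below compares 2 libraries, has no replicate check and has no p-value, and the 95% intervals of CPM ratios cover counting error only.

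The shMPP7 library held 24513089 estimated counts and the shCon library 23928620. MPP7 itself had 21 counts in shMPP7 and 42 in shCon, a ratio of CPM (estimated counts scaled to an equal library total) of 0.488 with a 95% interval of 0.275 to 0.843. These counts are below the minimum of 100 over both libraries that was set for reading ratios of other genes. Of transcripts that define this mesenchymal-like, receptor-negative line, the filament gene VIM had 3317 FPKM (fragments per length of transcript, scaled for depth) in shMPP7 and 2791 in shCon, while the epithelial cadherin gene CDH1 had 1 and 3 counts and the hormone receptor genes ESR1 and PGR 0 and 3, and 3 and 5. Of marker lists for other cell types, 1 of 6 fibroblast, 2 of 5 endothelial, 1 of 5 leukocyte and 0 of 4 smooth muscle genes reached 100 counts over both libraries. The summed CPM of these lists in shMPP7 and shCon was 16.2 and 19.6 for fibroblast, 7.51 and 7.77 for endothelial, 7.38 and 5.68 for leukocyte and 0.737 and 1.00 for smooth muscle markers.

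Collagens are secreted or membrane proteins built of 3 polypeptide chains wound into a triple helix, and each chain has its own gene. Fibrillar collagens form the tensile fibres of connective tissue, network collagens form sheets such as those of basement membranes, and fibril-associated collagens with interrupted helices (FACIT) sit on fibre surfaces. Laminins are cross-shaped proteins of an alpha, a beta and a gamma chain that assemble into the basement membrane and bind integrins. In the breast, laminins and collagen IV separate the epithelium from a stroma rich in fibrillar collagen.

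Most collagen genes, and a minority of laminin genes, were scarce or silent in either library. Of the 56 genes, 25 had at least 100 counts over both libraries, 17 of 44 collagens and 8 of 12 laminins, and ratios are given for these. Another 15 had fewer counts but more than 3 in a library, 6 had between 1 and 3 counts in the library where they were higher, and 10 were silent, with 0 counts in both. A count of 0 allows up to 3 counts (a one-sided limit), equal to 0.122 CPM in shMPP7 and 0.125 CPM in shCon. The silent genes were the fibrillar COL2A1, COL5A3 and COL11A1, the network collagen COL10A1, the FACIT genes COL9A1, COL21A1 and COL22A1, the transmembrane collagen COL25A1, the collagen VI chain COL6A5 and the laminin gamma chain LAMC3. The 6 at 1 to 3 counts were COL3A1, COL4A3, COL6A6, COL14A1, COL26A1 and LAMB4.

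**Figure D1:**
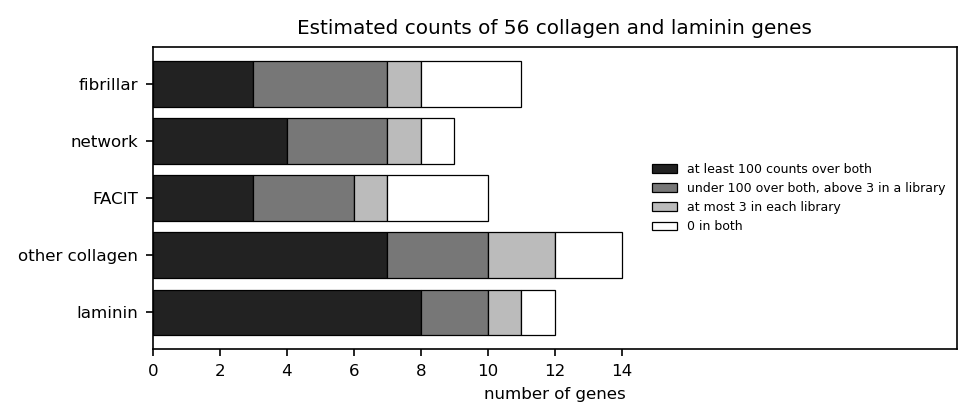
Number of genes (horizontal axis) in each collagen class and among laminins, shaded by their estimated counts in the 2 libraries. Laminins had the most genes with at least 100 counts, 8 of 12, and FACIT and fibrillar collagens the fewest, 3 of 10 and 3 of 11.

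Together the 44 collagens took 0.177% of the counts in shMPP7 and 0.182% in shCon, and the 12 laminins 0.197% and 0.194%. The CPM ratio of the summed counts, shMPP7 over shCon, was 0.970 (95% interval 0.957 to 0.983) for collagens, with the direction turned in FPKM at 1.04, and 1.01 (1.00 to 1.03) for laminins. In bulk RNA, fewer cells that express a gene and less RNA per cell cannot be told apart. LAMB3 alone gave 39.6% of the laminin counts in shMPP7 and 36.4% in shCon, and without it the laminin ratio was 0.964. The largest shares of the collagen counts belonged to COL5A1, with 15.0% in shMPP7 and 16.2% in shCon, and COL4A2, with 14.4% in shMPP7 and 13.4% in shCon.

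No counted member passed a fixed size rule of 1.5-fold in CPM in either direction. The rule called 0 of 25 members higher and 0 of 25 lower, where it called 0.609% and 1.17% of all 12155 genes with at least 100 counts. Counting intervals of 7 members lay above a ratio of 1 and those of 7 below it, with 11 including 1, against 13.8% of all such genes above and 21.5% below. Such intervals narrow with depth, so the 17 members with at least 2000 counts were also read against all 5067 genes at that depth. In that range 5 of 17 members lay above and 5 below, against 21.4% and 24.8% of the genes. The median log2 CPM ratio was -0.04 over the 17 counted collagens and -0.03 over the 8 counted laminins, and -0.02 over all genes with at least 100 counts. In FPKM these medians turned positive, at 0.05 for collagens and 0.12 for laminins, and that of all such genes was 0.05.

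**Figure D2:**
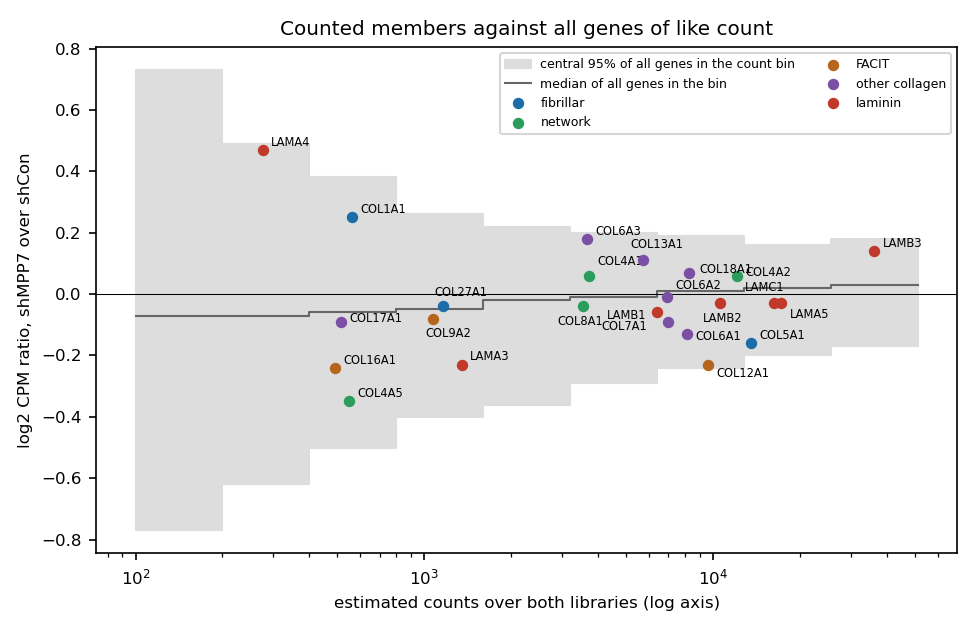
The log2 CPM ratio of shMPP7 over shCon (vertical axis) against the estimated counts over both libraries (horizontal log axis) for 24 counted members. The grey band holds the central 95% of all genes in the same count bin and the grey line their median, and all 24 points lie inside the band.

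When genes were binned by count, all 25 members lay within the central 95% of the genes of their bin. LAMA4 came close to the upper edge, at a log2 CPM ratio of 0.47 where genes with 200 to 400 counts spanned -0.62 to 0.49, and so did COL6A3, at 0.18 where genes with 3200 to 6400 counts spanned -0.29 to 0.20. COL12A1 came close to the lower edge, at -0.23 where genes with 6400 to 12800 counts spanned -0.24 to 0.19.

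Among the 11 fibrillar collagens 3 were counted, and the chains of the classical fibres of stroma were scarce. COL5A1, a chain of the collagen that nucleates fibrils, was the most abundant, with 6502 counts and 36.1 FPKM in shMPP7 and 7075 counts and 37.0 FPKM in shCon. Its CPM ratio was 0.897 (0.867 to 0.928), and the ratio of FPKM 0.974. COL27A1, a cartilage-type fibrillar collagen, had 578 counts in shMPP7 and 581 in shCon, a CPM ratio of 0.971 (0.864 to 1.09). COL5A1 was thus lower in shMPP7 beyond counting error while the interval of COL27A1 included 1.

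COL1A1, the main chain of collagen I, was low in either library but higher in shMPP7, with 308 counts against 252 in shCon. Its CPM ratio was 1.19 (1.01 to 1.41), whereas its FPKM of 5.41 in shMPP7 and 3.49 in shCon gave a ratio of 1.55. It was the 1 counted member of 25 past 1.5-fold in FPKM, where 2.35% of all genes with at least 100 counts were higher by that rule and 2.56% lower. Of the 6 fibroblast markers, LUM and FAP were at 0 counts in both libraries, and PDGFRB had 393 in shMPP7 and 467 in shCon. In shMPP7 and shCon, PDGFRA had 2 and 1 counts, THY1 2 and 0, and DCN 1 and 0. The part of such cells in the COL1A1 value was not tested. COL1A2, the partner chain of COL1A1, had 5 counts in shMPP7 and 0 in shCon. COL3A1, the collagen III chain, had 3 counts in shMPP7 and 1 in shCon.

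The minor fibrillar chains COL5A2, COL11A2 and COL24A1 had few counts. COL5A2, which pairs with COL5A1 in collagen V, had 20 counts in shMPP7 and 24 in shCon. The level of COL5A1 over that of COL5A2 was 161 in shMPP7 and 126 in shCon on the FPKM scale. COL11A2 had 15 and 19 counts, and COL24A1 4 and 5.

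The basement membrane chains COL4A1 and COL4A2 were counted deeply and kept the same proportion in both libraries. These genes lie head to head on chromosome 13 and are known to be transcribed in opposite directions from a shared promoter. The RefSeq promoter windows of this report run from 250 bases before to 50 after each annotated start on GRCh38.p14, and those of the pair overlap over 226 bases (chr13:110307108-110307333). The window of COL4A1 is shown because it holds the start regions of both genes, with the stretch shared with the COL4A2 window in capitals (chr13:110307108-110307407, minus strand, 5′ to 3′).
COL4A1: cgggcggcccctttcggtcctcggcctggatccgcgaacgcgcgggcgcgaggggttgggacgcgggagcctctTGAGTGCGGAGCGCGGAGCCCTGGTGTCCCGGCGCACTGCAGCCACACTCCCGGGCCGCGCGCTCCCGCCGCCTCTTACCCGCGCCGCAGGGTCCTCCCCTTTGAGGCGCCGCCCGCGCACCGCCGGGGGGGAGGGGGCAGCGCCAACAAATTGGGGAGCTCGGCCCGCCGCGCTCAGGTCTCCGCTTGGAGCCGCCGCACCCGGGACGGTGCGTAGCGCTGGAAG
COL4A1 had 1920 counts in shMPP7 and 1802 in shCon, a CPM ratio of 1.04 (0.975 to 1.11), and COL4A2 had 6254 and 5844, a ratio of 1.04 (1.01 to 1.08), whose interval included 1 after removal of the length and GC trend described for COL12A1. On the FPKM scale COL4A1 stood at 0.293 of COL4A2 in shMPP7 and 0.295 in shCon. The change of that proportion in counts was 0.996 (0.924 to 1.07), so the chains moved together within counting error.

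The other basement membrane chains were scarcer. COL4A5 had 244 counts in shMPP7 and 304 in shCon, a CPM ratio of 0.783 (0.659 to 0.930), the lowest of any counted member. Its FPKM was 2.44 and 2.46, a ratio of 0.990, so the difference was seen in counts and not in FPKM. COL4A6, its neighbour in head-to-head orientation on the X chromosome, had 18 counts in shMPP7 and 17 in shCon. COL4A4 had 34 and 28 counts, and COL4A3 0 and 3. Of the hexagonal network chains, COL8A1, found in vessel walls and the cornea, had 1765.96 counts in shMPP7 and 1774.59 in shCon, with a CPM ratio of 0.971 (0.909 to 1.04). Its partner COL8A2 had 20 counts in shMPP7 and 27 in shCon.

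All 3 counted FACIT genes had a ratio below 1 in CPM and in FPKM, and the counting interval of 1 of them lay below it. Of all genes with at least 100 counts, 21.5% had an interval below 1. Their median log2 ratio was -0.02 in CPM, so most of them also lay below 1 there, and 0.05 in FPKM. Among genes with at least 2000 counts, as COL12A1 had, 24.8% had an interval below 1. COL12A1, which decorates collagen I fibres, had 4477 counts and 19.7 FPKM in shMPP7 and 5117 counts and 21.0 FPKM in shCon. Its CPM ratio was 0.854 (0.820 to 0.889) and its FPKM ratio 0.939. The COL12A1 transcript is long, at 11723 bases for its longest form in GENCODE 29. The longest 10% of protein-coding genes (7777 bases or more) had a median log2 CPM ratio of -0.14, against -0.02 for all protein-coding genes. The 8 counted members of that length had a median of -0.07. COL12A1 and LAMA3 were at -0.23, COL5A1 at -0.16, COL7A1 at -0.09, COL27A1 at -0.04, LAMA5 and LAMC1 at -0.03 and COL6A3 at 0.18. COL12A1 stood at -0.12 after the trend of ratios on length and GC was subtracted.

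COL16A1 had 227 counts in shMPP7 and 262 in shCon, a CPM ratio of 0.846 (0.705 to 1.01). For COL9A2, a chain of the cartilage collagen IX, the counts were 529 in shMPP7 and 546 in shCon, with a ratio of 0.946 (0.838 to 1.07). The intervals of both included 1, though that of COL16A1 left it out once the trend was subtracted. Of its partner chains, COL9A1 was at 0 counts in both libraries and COL9A3 had 7 counts in shMPP7 and 10 in shCon. COL19A1 had 12 and 16 counts, COL20A1 0 and 6, and COL14A1 0 and 1.

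Among the other collagens, the chains of collagen VI moved apart. Collagen VI forms beaded microfilaments around cells from COL6A1, COL6A2 and a larger chain. COL6A3, the usual larger chain, had 1959 counts in shMPP7 and 1692 in shCon, a CPM ratio of 1.13 (1.06 to 1.21). COL6A1 had 3933 and 4210 counts, a ratio of 0.912 (0.873 to 0.953), and COL6A2 3476 and 3427, a ratio of 0.990 (0.944 to 1.04). COL6A3 was higher, COL6A1 lower and COL6A2 within counting error of equal. With the trend subtracted, the interval of COL6A2 left out 1. In counts, COL6A3 relative to COL6A1 was 1.24-fold (1.15 to 1.34) of its shCon proportion, a value that does not depend on how the libraries are scaled. On the FPKM scale COL6A3 was 0.181 of COL6A1 in shMPP7 and 0.145 in shCon.

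The anchoring fibril collagen COL7A1, which fastens the epidermal basement membrane to the dermis, had 3419 counts in shMPP7 and 3548 in shCon, a CPM ratio of 0.941 (0.897 to 0.986). That interval included 1 with TMM or median-of-ratios scaling. The transmembrane collagen COL13A1, found at cell adhesion sites, was counted 3006 times in shMPP7 and 2713 in shCon, a ratio of 1.08 (1.03 to 1.14). With 74.4 FPKM in shMPP7 and 64.7 in shCon it had the highest FPKM of the collagens. Per kilobase of the longest GENCODE transcript, however, COL6A2 (41.0 CPM in shMPP7 and 41.4 in shCon) and COL4A2 (39.3 and 37.6) stood above COL13A1 (38.5 and 35.6). COL6A1 (37.9 and 41.5) stood above it in shCon only. The top of that order thus depends on the transcript length used.

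COL18A1, whose product is cleaved to release endostatin, had 4272 counts in shMPP7 and 3979 in shCon, a CPM ratio of 1.05 (1.00 to 1.09), and the lower bound was just above 1. The intervals of COL13A1 and COL18A1 included 1 once the trend was subtracted. COL17A1, the hemidesmosomal transmembrane collagen, had 252 and 261, a ratio of 0.942 (0.790 to 1.12), against 0.776 in FPKM. COL15A1 had 34 counts in shMPP7 and 33 in shCon, COL23A1 4.14 and 2.38, and COL28A1 0 and 3.45.

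**Figure D3:**
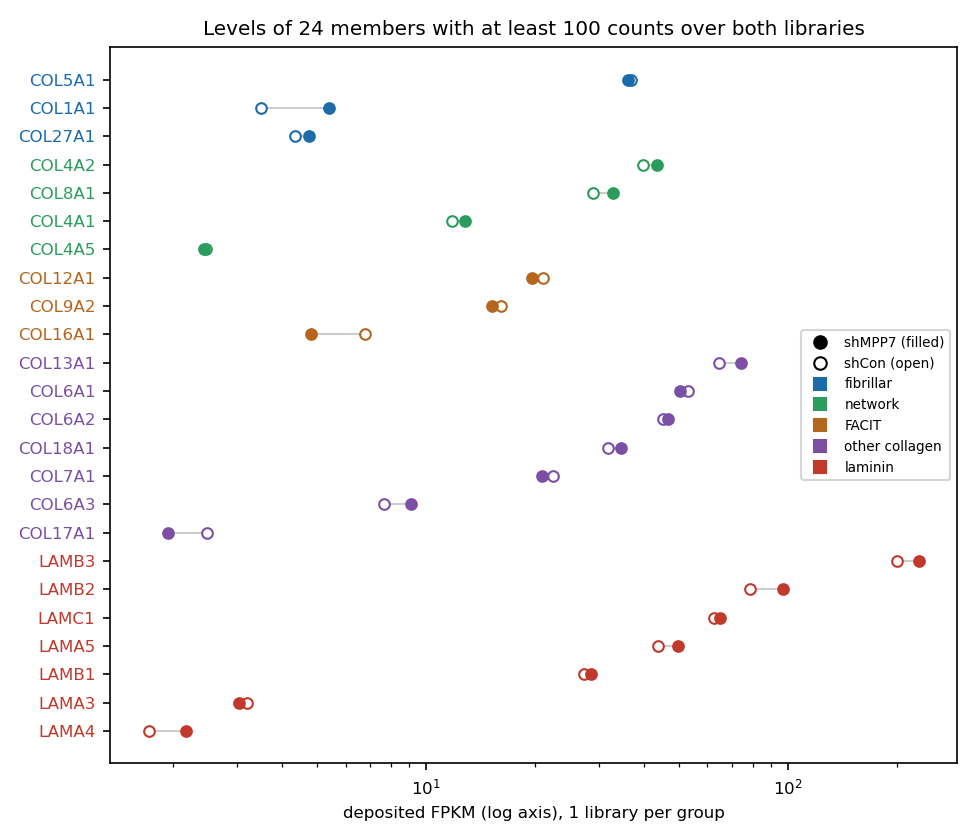
Deposited FPKM (horizontal log axis) of 24 members with at least 100 counts, by class, with shMPP7 as filled and shCon as open points, 1 library each. LAMB3 lies farthest right, at 230 FPKM in shMPP7 and 200 in shCon, and LAMA4 lowest in shCon at 1.71.

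The laminins were led by LAMB3, the beta chain of an epithelial laminin that also holds LAMA3 and anchors hemidesmosomes. LAMB3 (ENSG00000196878, chromosome 1, 209614870 to 209652466 on the minus strand of GRCh38) had 19164 counts and 230 FPKM in shMPP7 and 16955 counts and 200 FPKM in shCon. Its CPM ratio was 1.10 (1.08 to 1.13). LAMA3, the alpha chain, had 629 counts in shMPP7 and 721 in shCon, a ratio of 0.852 (0.764 to 0.949). These chains were thus not shifted alike, with LAMB3 higher and LAMA3 lower in counts.

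The counts of LAMB3 relative to LAMA3 were 1.30-fold (1.16 to 1.45) of their proportion in shCon, and the change in FPKM was 1.21. The longest transcript of LAMA3 has 10661 bases and that of LAMB3 4305. With the length and GC trend subtracted, the log2 CPM ratio was 0.10 for LAMB3 and -0.16 for LAMA3. Without that step it was 0.14 and -0.23, so part of the gap went with the trend. LAMB3 exceeded LAMA3 in either library, at 75.6 times its FPKM in shMPP7 and 62.5 in shCon.

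AP-1 is a family of FOS and JUN dimers whose binding motif TGANTCA is its own reverse complement. Of the 41 members with a RefSeq promoter window, 3 held this motif on either strand, COL10A1, LAMA3 and LAMB3, which is 7.32% of members where 9.37% of all 27305 genes with a window held it. The LAMB3 and LAMA3 windows are shown, with the motif in capitals, because the genes encode chains of the same trimer. The LAMB3 window is that of 1 of its 3 annotated starts (chr1:209651325-209651624, minus strand), with the motif beginning 67 bases before the start. The LAMA3 window (chr18:23872770-23873069, plus strand) has motifs beginning 125 and 69 bases before its start. That start lies inside the LAMA3 gene, which runs from 23689443 to 23956222 on the plus strand, and not at the gene's outer end. Which LAMA3 transcripts begin there, and their part in the LAMA3 counts, was not tested.
LAMB3: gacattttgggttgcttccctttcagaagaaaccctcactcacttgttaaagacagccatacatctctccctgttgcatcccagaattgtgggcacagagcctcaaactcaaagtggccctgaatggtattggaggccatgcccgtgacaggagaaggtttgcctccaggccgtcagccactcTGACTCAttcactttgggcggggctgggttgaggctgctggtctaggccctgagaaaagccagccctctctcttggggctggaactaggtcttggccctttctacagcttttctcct
LAMA3: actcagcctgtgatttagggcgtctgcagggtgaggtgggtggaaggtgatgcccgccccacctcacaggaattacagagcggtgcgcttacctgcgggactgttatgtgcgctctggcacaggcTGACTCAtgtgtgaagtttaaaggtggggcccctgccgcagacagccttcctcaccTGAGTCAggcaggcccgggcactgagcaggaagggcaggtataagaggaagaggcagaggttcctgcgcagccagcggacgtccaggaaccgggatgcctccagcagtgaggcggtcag
These matches describe letters in the windows, and binding was not measured.

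Of the alpha chains, LAMA5, the main alpha chain of adult basement membranes, had 8649.03 counts in shMPP7 and 8592.06 in shCon, a CPM ratio of 0.983 (0.954 to 1.01). LAMA5 shares 244 exon bases with ADRM1 on the opposite strand, which had 7840.97 and 7111.94 counts, and the sources do not state whether counting used strand. LAMA4, an alpha chain of vessel and muscle basement membranes, had 162 counts in shMPP7 and 114 in shCon. Its CPM ratio of 1.39 (1.08 to 1.78) was the highest of any counted member, and its FPKM was 2.17 and 1.71. The 5 endothelial markers had few counts: in shMPP7 and shCon, KDR had 102 and 111, PECAM1 73 and 68, CDH5 5 and 3, TEK 4 and 1, and VWF 0 and 3. Their part in the LAMA4 value was not tested. In counts LAMA4 relative to LAMA5 changed by 1.41 (1.10 to 1.81). LAMA1, an alpha chain of the early embryo, had 25 counts in shMPP7 and 38 in shCon, and LAMA2, that of muscle and nerve, 23 and 18. The intervals of their CPM ratios, 0.372 to 1.09 and 0.644 to 2.45, included 1.

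The chains of the widely expressed laminins held their proportions in counts. LAMC1, the gamma chain of most laminins, had 8148 counts in shMPP7 and 8147 in shCon, a CPM ratio of 0.976 (0.947 to 1.01). The beta chain LAMB1 had 3166 and 3218, a ratio of 0.960 (0.914 to 1.01), and LAMB2, its counterpart at synapses and kidney filters, 5275 and 5253, a ratio of 0.980 (0.943 to 1.02). Relative to LAMC1, the proportion changed by 1.01 (0.964 to 1.05) for LAMA5, 0.984 (0.928 to 1.04) for LAMB1 and 1.00 (0.956 to 1.05) for LAMB2. On the FPKM scale these changes were 1.10 for LAMA5, 1.01 for LAMB1 and 1.19 for LAMB2. LAMB1 shares 70 exon bases with DLD on the opposite strand, which had 1513 counts in shMPP7 and 1767 in shCon. By FPKM the laminins described here fell in the same order in both libraries, from LAMB3 through LAMB2, LAMC1, LAMA5, LAMB1 and LAMA3 to LAMA4. With a single library each, the distance between neighbours in that order cannot be set against a spread.

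**Figure D4:**
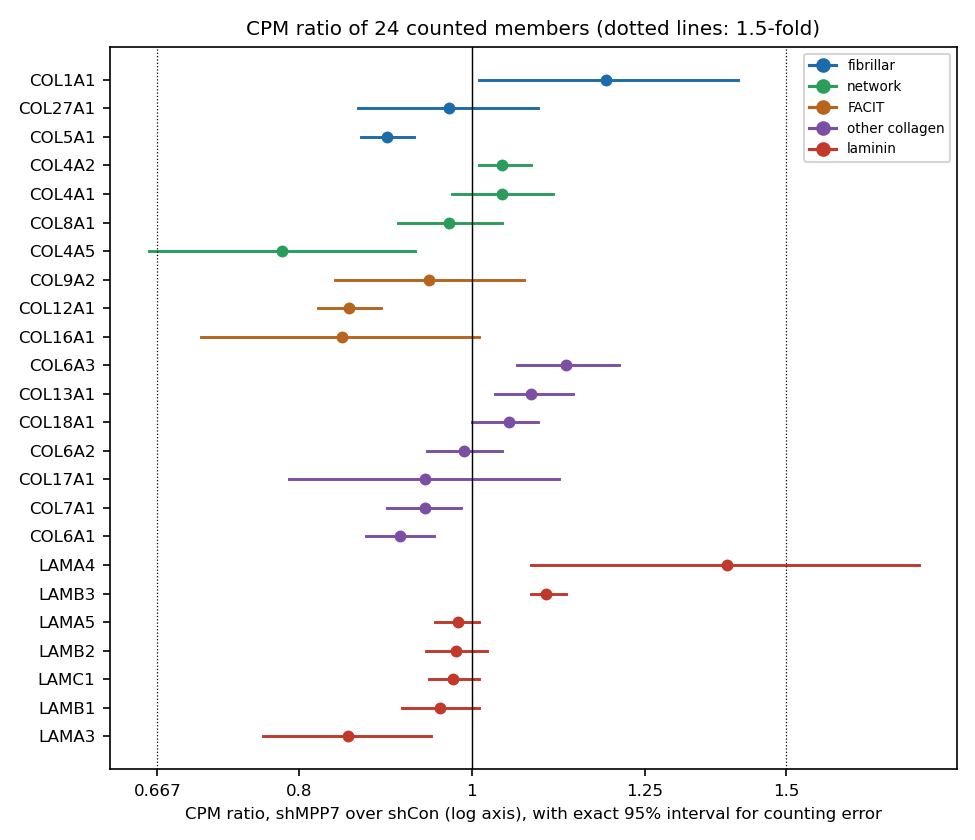
CPM ratio of shMPP7 over shCon (horizontal log axis) for each of 24 counted members, by class, with the exact 95% interval for counting error. All 24 points lie between the dotted lines at 1.5-fold, LAMA4 at 1.39 being the highest and COL4A5 at 0.783 the lowest.

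Ratios in the deposited FPKM lay above those in counts for most members. FPKM was higher in shMPP7 for 16 of 25 members and lower for 9, where the CPM was higher for 8 and lower for 17. The median of the log2 FPKM ratio minus the log2 CPM ratio was 0.09 over the members and 0.06 over all genes with at least 100 counts. LAMB2 showed this plainly: its counts gave a log2 ratio of -0.03, its 97.0 FPKM in shMPP7 and 78.9 in shCon one of 0.30. The transcript length implied by its counts and FPKM was 2218 bases in shMPP7 and 2784 in shCon, and its longest GENCODE transcript has 5674.

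**Figure D5:**
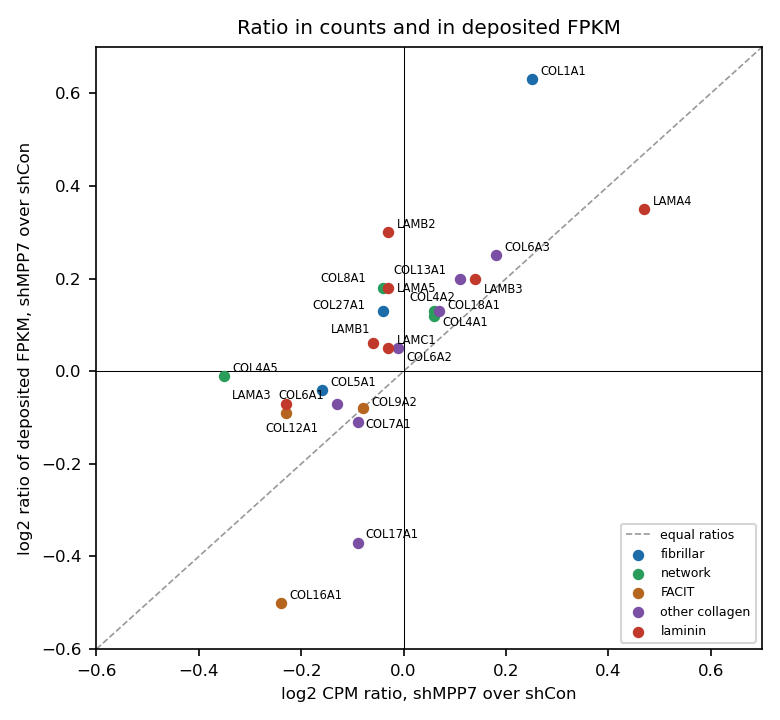
Log2 ratio of deposited FPKM (vertical axis) against log2 CPM ratio (horizontal axis), shMPP7 over shCon, for 24 counted members, with the dashed line marking equal ratios. COL1A1 lies farthest above the line, at 0.63 in FPKM and 0.25 in CPM, and COL17A1 farthest below it, at -0.37 and -0.09.

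Genes that fold, modify and cross-link collagen were close to equal. Of 34 listed genes 26 were counted, with a median log2 CPM ratio of -0.01 and 0 past 1.5-fold in either direction. Intervals of 6 lay above a ratio of 1 and of 6 below it, against the 13.8% above and 21.5% below of all genes with at least 100 counts. Most of the 26 had at least 2000 counts over both libraries, and at that depth 21.4% of all genes lay above and 24.8% below. The 6 with the largest ratios in either direction were CTAGE5 of collagen export from the endoplasmic reticulum at 0.795 (0.707 to 0.897), the lysyl oxidase genes LOXL4 at 0.875 (0.803 to 0.953) and LOXL1 at 0.886 (0.759 to 1.04), the prolyl hydroxylase subunit P4HA1 at 0.902 (0.846 to 0.961), the lysyl hydroxylase PLOD2 at 0.902 (0.846 to 0.962) and the endoplasmic reticulum protein P3H4 at 1.11, with an interval that included 1. The collagen chaperone SERPINH1 had 6349 counts in shMPP7 and 6240 in shCon, a ratio of 0.993 (0.959 to 1.03).

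Of 15 basement membrane partners 7 were counted, with 2 intervals above 1, 1 below it, and 0 members past 1.5-fold. All genes with at least 100 counts gave 13.8% above, 21.5% below, and 0.609% and 1.17% past 1.5-fold higher and lower. Most of the 7 had at least 2000 counts over both libraries, and at that depth 21.4% of all genes lay above and 24.8% below. The largest ratios were those of NTN4 at 1.18 (0.843 to 1.66), FBLN1 at 0.909 (0.785 to 1.05), the perlecan gene HSPG2 at 0.910 (0.877 to 0.944), EFEMP1 at 1.09 (1.03 to 1.16), the peroxidase PXDN, which cross-links collagen IV, at 1.05 (1.03 to 1.08) and TINAGL1 at 1.02 (0.984 to 1.06). The linker gene NID1, which joins laminin to collagen IV, was at 0 counts in both libraries, and NID2 had 0 in shMPP7 and 1 in shCon.

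Of 17 receptors for collagens and laminins 11 were counted, with 3 intervals above 1, 3 below it, and 0 past 1.5-fold. Over all genes with at least 100 counts, 13.8% lay above and 21.5% below, and 0.609% and 1.17% were past 1.5-fold higher and lower. Every counted receptor had at least 2000 counts over both libraries, and at that depth 21.4% of all genes lay above and 24.8% below. The collagen receptor ITGA2 stood at 0.862 (0.814 to 0.911), the laminin receptor BCAM at 1.14 with an interval above 1, and ADGRG1, an adhesion receptor that binds collagen III, at 1.12 (1.07 to 1.17). ITGB1, the common beta subunit, was at 0.934 (0.920 to 0.949), ITGA1 at 0.948 (0.890 to 1.01) and the dystroglycan gene DAG1 at 0.952 (0.924 to 0.981). The median log2 CPM ratio of the 11 was -0.06, and 5 lay above 0 and 6 below it.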

How the data were processed

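Total RNA of MDA-MB-231 cells was sequenced, 1 library for shMPP7 and 1 for shCon, grouped by the genotype label. The deposited table gives, per the file headers, a count and an FPKM value per gene and library. The counts as deposited are estimated counts (73.0% of values above 0 in shMPP7 and 71.8% in shCon were exactly whole as written, with no tolerance). FPKM was computed by the authors, per the file headers. TopHat2 2.0.9, Cuffdiff and hg19 are listed in the submitters' processing notes, with no role, and no source used here names the tool that counted reads. GENCODE 29 (GRCh38) held 99.4% of the gene IDs and gave positions, lengths and GC contents. The table has no coordinates.

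CPM is the count over the library total, scaled. CPM ratios have an exact 95% interval (Clopper-Pearson, given the summed count, counts rounded to whole numbers), and changes of proportion a conditional exact interval of the odds ratio. Intervals and the floor of 3 counts cover counting error only, and reads without molecular identifiers are not independent molecules. Ratios were read for genes with at least 100 counts over both libraries, and a fold of 1.5 stood in for a test. A name on several lines (215 names) was taken from the line with the largest count. All members enter the counts and sums, 1 is not reported singly here, the other counted ones have values, and in each of the 3 further lists the 6 with the largest absolute log2 CPM ratio (SERPINH1, NID1 and NID2 were added after their values were seen). Members and lists were chosen with earlier results of these data known. Gene sequences were from RefSeq (GRCh38.p14), which matched 41 of 56 members. A search with blastn 2.17.0 found no transcript of another gene with at least 97% identity over 100 bases for the counted members. Scaling factors came from edgeR 4.0.16 (TMM) and DESeq2 1.42.0 (median of ratios), with no test. The ratio and interval were checked on simulated counts (Python 3.11.15, scipy 1.17.1). Those counts were drawn with counting error only, as the interval assumes, so the check covers the calculation and not spread between libraries.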

Additional observations from a re-analysis of the deposited data

How the results depend on the processing

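With 1 library per group, no library could be left out. No paired analysis was possible because each group has 1 library. The count of members past 1.5-fold was 0 in either direction in CPM, with TMM or median-of-ratios scaling, with the length and GC trend removed, with a 2-fold rule and with lines of a name summed. In FPKM 1 member was higher (COL1A1), with a minimum of 20 counts 1 was lower (LAMA1), and with no minimum and 0.5 CPM added 1 was lower (COL20A1). With the smaller planned size rule 1 was higher (LAMA4) and 1 lower (COL4A5). The median of collagens stayed between -0.08 and 0.05 over the alternatives, and that of laminins moved to 0.12 in FPKM, also with 1 FPKM added, the cause of which was not tested. The summed collagen ratio was 0.987 with TMM scaling, 0.993 with median-of-ratios scaling, 1.04 in FPKM and 0.984 without COL5A1. The summed laminin ratio was 1.03, 1.04, 1.13 and, without LAMB3, 0.964. In FPKM 8 of 25 members had the other sign than in CPM. The median log2 ratio of all genes with at least 100 counts changed sign as well, from -0.02 to 0.05. With TMM scaling COL6A2 changed sign, and with median-of-ratios scaling also LAMA5 and LAMB2, all with intervals that include 1. Intervals left out 1 for 14 members in CPM and for 13 with either other scaling (without COL7A1) and with the trend removed (without COL13A1, COL18A1 and COL4A2, with COL16A1 and COL6A2). Low counts limit COL1A1, COL4A5, COL16A1, COL17A1 and LAMA4, whose intervals are the widest of the counted members.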

Other observations

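Promoter windows of counted and silent members were compared by their CpG content, the observed number of CG steps over that expected from the base composition. The median was 0.602 over 21 members with at least 100 counts, 0.702 over 14 with fewer counts and 0.386 over 6 that were silent, against 0.563 over all 27305 genes with a window. The ranges overlapped, from 0.0820 (COL17A1) to 1.02 (COL4A1) in the counted members and from 0.178 to 1.10 in the silent ones, where COL25A1 was the highest. The GC box GGGCGG, searched on both strands, was in windows of 65.9% of 41 members and of 48.3% of all genes, and TATAAA in 17.1% and 14.0%. These are descriptions of the sequence and carry no test.

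Outside the naming rule, and picked after its values were seen, the matrix gene FBLN5 had 21 counts in shMPP7 and 7 in shCon, a CPM ratio of 2.93 (1.20 to 8.15), below the minimum of 100 counts.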
